A study of Mus musculus with 5 samples.

Results

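The H3K4me1-marked regions of IL-2-activated natural killer cells (NKC) are described here across the mouse genome and its genes. All intervals of the H3K4me1 peak list were taken, with no selection by width, position or Runx3 binding, which gave 34204 peaks of the 45880 peaks in the series. The remaining 11676 are Runx3 peaks of the same cells. Chromatin immunoprecipitation followed by sequencing (ChIP-seq) was done on NKC from the spleens of ICR mice, an outbred strain, obtained by negative selection and cultured for 7 days with human recombinant IL-2 at 1000 units/ml. The labels call all cultured cells positive for NKp46, the activating receptor encoded by Ncr1, where the study's methods say nearly all. Each immunoprecipitation used chromatin of fixed cells sheared to fragments of about 300 bp, and reads of 40 bp were sequenced. There was 1 library with an antibody against H3K4me1, 2 with an antibody against Runx3 and 2 with non-immune serum (NIS), the control against which peaks were called. All libraries came from cells of the same strain and culture, so the peaks describe 1 condition. Peaks are listed by chromosome and by their first and last base, with no height, fold or p-value. Depth cannot be read from it, the labels give a single H3K4me1 experiment where the study's methods speak of repeats that were joined, so no spread between replicates can be had, and a gene without a peak is one where the caller listed none, not one shown to lack the mark.

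H3K4me1 is histone H3 with a single methyl group on lysine 4. It is laid down mainly by the MLL3 and MLL4 methyltransferases and is enriched at enhancers, both active and poised, while the nucleosomes right at active promoters carry H3K4me3 instead, so that H3K4me1 typically flanks active promoters. In lymphocytes the set of enhancers so marked differs between cell types more than the set of promoters does. NKC kill target cells with perforin and granzymes, secrete interferon gamma and chemokines, and depend on IL-15 and IL-2 signalling through the receptor chain encoded by Il2rb.

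The sequence under a peak is shown for 7 genes of these programmes, chosen because each is a hallmark of NKC function and because the peak nearest to its TSS (transcription start site) was free of untranslated exons in its centre. The central 200 bp are given on the plus strand of the mm9 genome. Capitals mark matches on either strand to a RUNX site (TGNGGN with C or T at each N), an ETS site (NGGAAN with A or C before and A or G after), an AP-1 site (TGANTCA with C or G at N) or a T-box site (TCACACC). A match is a run of letters and no evidence of binding. Klrk1 encodes the receptor NKG2D, Prf1 perforin, Gzma a granzyme, Ifng interferon gamma, Cxcr3 a chemokine receptor and Ccl5 a chemokine.
Klrk1, chr6:129576345-129576544: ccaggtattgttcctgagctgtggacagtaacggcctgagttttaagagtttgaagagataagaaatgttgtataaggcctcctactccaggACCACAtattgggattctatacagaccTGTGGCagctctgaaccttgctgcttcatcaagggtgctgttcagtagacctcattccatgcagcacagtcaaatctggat
Prf1, chr10:60759067-60759266: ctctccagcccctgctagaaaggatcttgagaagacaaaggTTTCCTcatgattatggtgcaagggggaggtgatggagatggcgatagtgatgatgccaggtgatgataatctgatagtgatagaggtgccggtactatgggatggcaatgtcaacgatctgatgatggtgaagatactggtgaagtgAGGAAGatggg
Gzma, chr13:113893071-113893270: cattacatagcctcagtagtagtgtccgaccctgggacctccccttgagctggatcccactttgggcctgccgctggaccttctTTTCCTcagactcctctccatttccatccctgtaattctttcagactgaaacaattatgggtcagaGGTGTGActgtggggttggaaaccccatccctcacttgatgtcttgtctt
Ifng, chr10:117880688-117880887: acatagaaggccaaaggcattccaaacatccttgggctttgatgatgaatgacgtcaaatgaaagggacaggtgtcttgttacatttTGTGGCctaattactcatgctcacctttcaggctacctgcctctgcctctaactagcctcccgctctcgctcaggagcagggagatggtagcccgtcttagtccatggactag
Il2rb, chr15:78327263-78327462: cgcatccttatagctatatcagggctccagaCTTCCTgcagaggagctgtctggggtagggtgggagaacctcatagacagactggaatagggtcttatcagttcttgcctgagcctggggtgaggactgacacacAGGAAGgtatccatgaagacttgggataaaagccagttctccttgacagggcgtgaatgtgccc
Cxcr3, chrX:98930209-98930408: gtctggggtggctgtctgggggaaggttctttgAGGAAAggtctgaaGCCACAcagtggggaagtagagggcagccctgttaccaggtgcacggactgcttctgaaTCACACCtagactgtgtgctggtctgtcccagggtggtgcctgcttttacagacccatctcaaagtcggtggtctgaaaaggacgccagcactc
Ccl5, chr11:83345028-83345227: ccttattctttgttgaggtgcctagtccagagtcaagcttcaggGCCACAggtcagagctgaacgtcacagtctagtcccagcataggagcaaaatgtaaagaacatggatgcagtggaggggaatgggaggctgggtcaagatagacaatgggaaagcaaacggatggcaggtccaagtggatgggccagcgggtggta
The Klrk1 sequence held 2 RUNX matches, and those of Ifng and Ccl5 held 1 each. The Prf1 and Il2rb sequences held 2 ETS matches each. The Gzma sequence held 1 ETS and 1 T-box match, and that of Cxcr3 held 1 RUNX, 1 ETS and 1 T-box match. None of the 7 held an AP-1 match. These peaks lay in an intron of Ifng and upstream of the TSS, outside genes, for the other 6.

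H3K4me1 peaks lay mostly inside genes, and most of all in introns. Of the 34204 peak centres, 19422 fell in introns, which is 56.8% (95% Wilson interval 56.3 to 57.3%, counting error only) where introns made up 37.8% of the known bases of the genome. Outside genes lay 11496 centres, 33.6% (33.1 to 34.1%), where 58.8% of the known bases lie. Introns thus held 1.50 times, and the space between genes 0.571 times, the share that their length gives. Exons held few peaks but more than their length gives. Coding sequence held 1719 centres, 5.03% of peaks against 1.4% of bases. The 5′ untranslated parts held 278 centres, 0.813% against 0.224%. The 3′ untranslated parts held 658 centres, 1.92% against 1.03%. Exons of non-coding transcripts held 631 centres, 1.85% against 0.750%. Peaks were of like width in all 6 classes, with medians between 667 bp outside genes and 747 bp in 3′ untranslated parts.

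Within introns the marked regions were concentrated at the start of genes. The first intron of the longest protein-coding transcript held 8093 centres, 41.7% of intronic peaks (41.0 to 42.4%), on 25.2% of intronic bases. Later introns held 10331 centres, 53.2% of intronic peaks (52.5 to 53.9%), on 67.1% of intronic bases. Per length this was 33.2 peaks per Mb in first introns and 15.95 peaks per Mb in later ones. The same slope was seen over whole gene bodies, read in 10 equal parts, in the 9280 autosomal genes of 20 kb to under 1 Mb, of which 4148 held a centre. The part next to the TSS held 14.2% of the 18081 centres in these genes, and the part at the far end 8.17%.

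**Figure D1:**
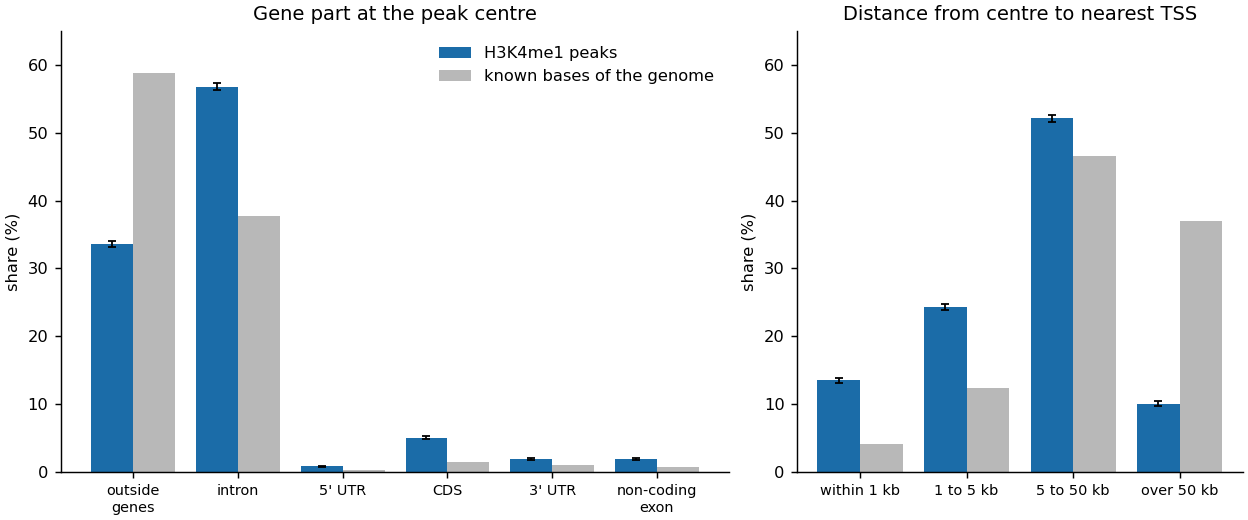
Share of H3K4me1 peak centres (blue, with 95% Wilson intervals) and of known bases of the genome (grey) by gene part (left) and by distance from the nearest TSS (right), both in percent. Introns hold 56.8% of centres and 37.8% of bases, and the 3444 centres over 50 kb from a TSS are 10.1% of peaks where 37% of bases lie.

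Most H3K4me1 peaks were distal to promoters without being remote from genes. The median distance of a centre from the nearest of 86807 annotated TSSs was 8534 bp. Within 1 kb of a TSS lay 4612 centres, 13.5% (13.1 to 13.8%), and between 1 and 5 kb 8317 centres, 24.3% (23.9 to 24.8%). The largest class, 17831 centres or 52.1% (51.6 to 52.7%), lay 5 to 50 kb away. Relative to the bases at those distances, the density of centres fell steadily from the TSS outwards, from 3.25 times the genome's share within 1 kb to 1.97 times at 1 to 5 kb, 1.12 times at 5 to 50 kb and 0.272 times beyond 50 kb. Within 5 kb of a TSS 7155 centres lay downstream and 5772 upstream, so that 55.3% (54.5 to 56.2%) were on the gene's side. The most remote peak lay 721642 bp from any TSS.

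At the TSS itself H3K4me1 peaks were fewer than on either side, mainly at CpG-rich promoters. CpG-rich promoters, which drive mostly broadly expressed genes, were taken as those with a GC content of at least 50% and an observed to expected CpG ratio of at least 0.6 in the 1000 bp around the TSS. Of the 9658 autosomal protein-coding genes with such a promoter, 1.96% (1.70 to 2.25%) had the TSS inside a peak. The share rose to 5.70% (5.25 to 6.17%) at 600 bp upstream and to 7.55% (7.04 to 8.09%) at 1300 bp downstream. A valley between flanking marks was thus seen over the CpG-rich promoters as a group. The 11760 CpG-poor promoters had no such valley but a broad rise around the TSS, from 1.96% (1.72 to 2.22%) at 5 kb upstream and 2.62% (2.35 to 2.92%) at 5 kb downstream. Here 3.55% (3.23 to 3.90%) had the TSS inside a peak, and the highest shares were 4.01% (3.67 to 4.38%) at 500 bp upstream and 3.61% (3.29 to 3.97%) at 300 bp downstream, with intervals that overlap that of the TSS. Counted gene by gene within 2 kb, 328 CpG-rich promoters (3.40%) had an uncovered TSS with a peak on both sides, against 151 CpG-poor promoters (1.28%). A peak on the downstream side only was found at 1223 CpG-rich promoters (12.7%), and on the upstream side only at 872 (9.03%). No peak lay within 2 kb of 7046 CpG-rich (73.0%) and 10202 CpG-poor promoters (86.8%).

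**Figure D2:**
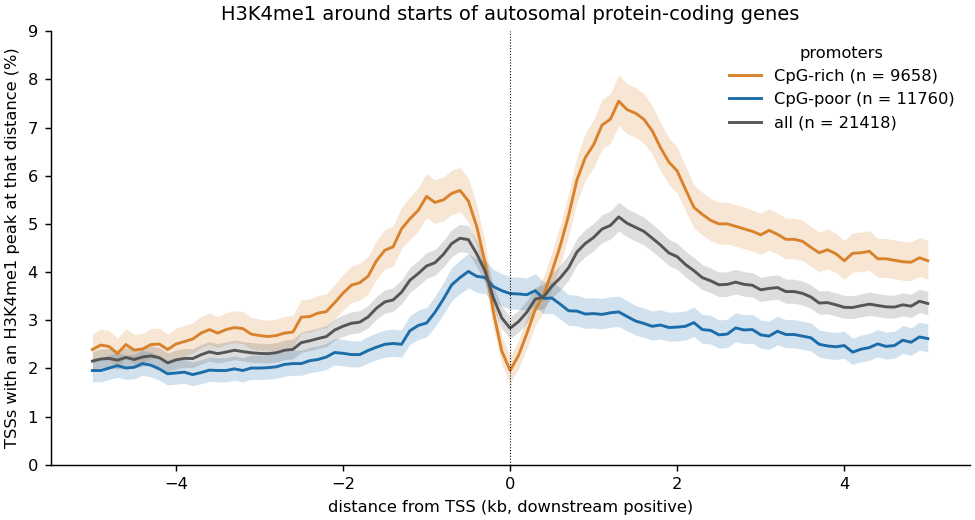
Share of autosomal protein-coding TSSs (in percent, with 95% Wilson bands) that have an H3K4me1 peak at each distance from 5 kb upstream to 5 kb downstream of the TSS, for CpG-rich, CpG-poor and all promoters. The CpG-rich curve falls to 1.96% at the TSS between maxima of 5.70% at 600 bp upstream and 7.55% at 1300 bp downstream, while the CpG-poor curve stays at 3.55% at the TSS.

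Set beside the Runx3 peaks of the same cells, which mark where a transcription factor sits, the histone mark was less often at promoters and more often in introns. Within 1 kb of a TSS lay 13.5% of H3K4me1 and 25.3% of Runx3 centres (odds ratio 0.461, p = 6.95e-179 by a two-sided Fisher's exact test with Benjamini-Hochberg adjustment over 4 classes). In introns lay 56.8% of H3K4me1 and 45.4% of Runx3 centres (odds ratio 1.58, adjusted p = 2.02e-100, same exact test). Outside genes lay 33.6% of H3K4me1 and 41.9% of Runx3 centres (odds ratio 0.703, adjusted p = 2.80e-57, same exact test). Beyond 50 kb lay 10.1% of H3K4me1 and 12.0% of Runx3 centres (odds ratio 0.819, adjusted p = 4.15e-09, same exact test). The tests compare these 2 lists, whose peaks are not independent of each other, and not conditions.

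The marked regions were short, and many stood in runs. The median width was 689 bp, with the middle 50% of peaks between 525 and 965 bp and a range of 135 to 9835 bp, and together the peaks covered 28.4 Mb or 1.11% of the known bases. There were 1121 peaks (3.28%) of 2 kb or more and 24 of 5 kb or more. No peaks overlapped. The gap to the next peak had a median of 4409 bp, but 11196 gaps (32.8%) were under 1 kb and 3590 under 100 bp. When peaks closer than 1 kb were joined, 23008 blocks remained, of which 16225 (70.5%) were single peaks, 4368 pairs and 2415 blocks of 3 or more peaks. Those blocks of 3 or more held 9243 peaks, 27% of all. The longest run by count had 18 peaks, and the widest block spanned 28695 bp. The caller's splitting of broad signal into short peaks enters every count of peaks, which is why covered length is given beside counts below.

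Of the 10 widest peaks, 9 lay within genes. The widest, 9835 bp, lay in an intron of Sept9, a septin of the cytoskeleton. The others of over 8 kb were 8624 bp in an intron of Cxxc5 and 8537 bp in an intron of Smad3, which encodes a mediator of TGF-beta signalling. Ptpre, a tyrosine phosphatase, held 1 of 7389 bp and Notch1, the receptor, 1 of 6946 bp. A peak of 6505 bp was centred in coding sequence of Nbeal2. The only one of the 10 outside genes, 6192 bp wide at chr4:134629698-134635889, had Runx3 as its nearest protein-coding gene, with the TSS 43773 bp from its centre.

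H3K4me1 peaks followed gene-dense, GC-rich chromosomes. On the 19 autosomes the density ranged from 7.47 peaks per Mb on chromosome 3 to 26.1 on chromosome 11, with a median of 14.8. Across these chromosomes it rose with the density of protein-coding genes (r = 0.858, n = 19) and with GC content (r = 0.940, n = 19), which themselves go together, and these values are a description of chromosomes of 1 library. Peaks were gathered in few places. Of 2482 autosomal windows of 1 Mb, 831 (33.5%) held no peak, the median was 4 peaks and 167 windows held 50 or more. The densest, with 164 peaks, ran from 80 to 81 Mb on chromosome 10 over 60 genes, among which Gng7 and Dot1l held the most. The next densest windows held 119 peaks around Gse1 and Irf8 on chromosome 8, under the long model Gm20388, and 116 peaks around Runx3 on chromosome 4. The windows ranked 4 to 9 held 115 to 111 peaks, with Crtc3, B4galt5, Cirbp, Prex1, Ell and Sept9 first by peaks. The window of chromosome 15 with Il2rb, Cyth4 and C1qtnf6 ranked 10 of all with 106 peaks. The longest autosomal stretches without a peak were 12.7 Mb on chromosome 4 around Ptprd and Nfib and 12.4 Mb on chromosome 15 around the cadherin genes Cdh18, Cdh12, Cdh10 and Cdh6.

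Chromosome X was nearly empty. It held 51 H3K4me1 peaks, or 0.315 per Mb, which is 23.7 times lower than the sparsest autosome and 47.1 times lower than the median autosome. Of its 932 protein-coding genes, 29 (3.11%) had a peak within 5 kb, against 41.4% of autosomal genes. Runx3 peaks were also sparse there, with 60 peaks or 0.370 per Mb against 3.39 to 7.27 on autosomes, so both lists of the series share the shortfall. The stretch chrX:99376013-137040615, of 37.7 Mb, held 190 protein-coding genes and no peak. Of 40 bp sequences sampled every 5000 bp, 74.3% occurred once in the genome on X and 81.4 to 91.2% on autosomes, a bearing of the unique alignment of reads on the shortfall that was not tested. Whether reads on X were treated differently before peaks were called is not given in the sources used here, so the counts on X describe the list and not the mark itself. Cxcr3, at chrX:98926874-98929608, was among the marked genes with 3 peaks, and Sh2d1a, which encodes the adaptor SAP, had 1. Il2rg, Foxp3 and Gata1, which have no peak, are also on X.

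**Figure D3:**
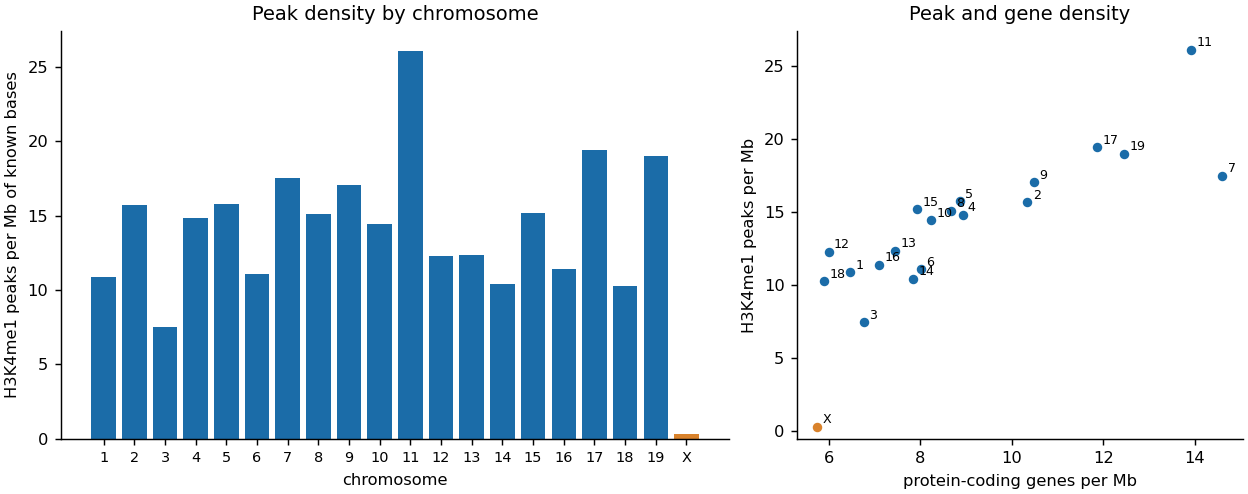
H3K4me1 peaks per Mb of known bases on each chromosome (left) and against the number of protein-coding genes per Mb (right), with chromosome X in orange. Autosomes range from 7.47 to 26.1 peaks per Mb, and X stands at 0.315.

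Genes were read by the peaks that overlap their body or the 5 kb to either side. Of 22350 protein-coding genes, 8887 (39.8%) had at least 1 H3K4me1 peak and 1733 (7.75%) at least 5. Among genes with a peak the median was 2. Exactly 1 peak was held by 3486 genes, 10 or more by 566 and 20 or more by 143. Of the peaks, 21568 fell in the window of 1 gene, 4169 in those of 2 or more and 8467 (24.8%) in none. Longer genes more often had a peak, from 21.8% of genes under 5 kb to 52.1% of those of 100 kb or more. Per length the order was different, with 4.51 peaks per 100 kb of window in genes of 5 to 20 kb and 1.46 in genes of 100 kb or more. Long intergenic RNA genes had a peak at a like share to protein-coding ones, 520 of 1273 or 40.8% (38.2 to 43.6%), and annotated pseudogenes seldom, 322 of 5200 or 6.19% (5.57 to 6.88%).

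The genes with the most H3K4me1 peaks were long ones. Leaving aside Gm20388 and Fgfr2, whose models in this annotation span 4.43 and 3.01 Mb and held 380 and 64 peaks, the most peaks were found at Zmiz1, a transcriptional coregulator, with 52 peaks over 77.5 kb. Sept9 and Prkch, a protein kinase C, had 49 each, covering 64.5 and 48.1 kb. Sipa1l1 had 47, Cux1 46, Bcl2 45, Snx29 43 and Mgat5 42. By covered length, among others, Prex1 (49.2 kb), 4933407C03Rik (47.4 kb), Rapgef1 (47.3 kb) and Rin3 (46.9 kb) joined them. The densest windows belonged to short genes. Among genes with at least 5 peaks, H3K4me1 covered 71.5% of the window of 6430531B16Rik, 69.6% of that of Hmha1, 66.8% of that of Mknk2, a kinase downstream of MAP kinases, 65% of that of Midn and 62.7% of that of C1qtnf6, followed by Gm17532 at 61.9%. Il2rb, the receptor chain through which the cultured cells were stimulated, came next in this order with 60.8%. Ubxn11, Adam8 and Vps37b, at 57.5 to 57.9%, closed the first 10.

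The gene lists were chosen with earlier results of these data known, so the shares below describe the lists and test nothing. The 5 lists of NKC genes held 118 genes. Of these, 105, or 89.0% (82.1 to 93.4%), had at least 1 peak where 39.8% of all protein-coding genes did. At least 5 peaks were held by 46 (39.0%) where 7.75% of all held them. Their median was 3.5 peaks. A peak lay within 2 kb of the TSS in 57 of them (48.3%), with the TSS itself covered in 14. Over all autosomal protein-coding TSSs, 80.5% had no peak within 2 kb and 2.83% were covered. The 6 lists of genes of B cells, myeloid, erythroid and megakaryocyte, neuronal, liver and muscle cells held 101 genes, of which 35, or 34.7% (26.1 to 44.3%), had at least 1 peak and 1 had at least 5. Here the median was 0, a peak lay within 2 kb of 13 TSSs (12.9%), and 8 TSSs were covered. The T-lineage list, with a peak in 15 of 22 genes (68.2%), was left out of these 6 lists and is described below.

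NKC receptors and their adaptors were marked often but lightly. Of 28 genes, 23 had a peak, 5 had at least 5, the median was 1 peak, and 62.2 bp per kb of their windows were covered against 20.5 bp per kb over all genes. In the gene body only, or with peaks of at least median width only, the share with a peak was 46.4% in place of 82.1%. Most peaks were found at Cd247, the zeta chain that carries receptor signals, with 14 over 10.4 kb, and the most covered length at the receptor Cd244 (2B4), with 6 peaks over 11.3 kb. Of the other surface receptors, Slamf7 had 7 peaks and Tigit 5. Of the other adaptors, Tyrobp (DAP12) had 5, Hcst (DAP10) 4, Fcer1g 2, and Sh2d1a and Sh2d1b1 1 each. Tyrobp and Hcst are neighbours and share most of their windows, with 1 peak in the body of Tyrobp and 0 in that of Hcst. The lectin-like receptors of the NK gene complex on chromosome 6 had few. Klrb1c (NK1.1) and Klrg1 had 3 each, with 0 and 2 in the gene body. Klrk1, Klrb1a and Klra7 had 2 each, with 1, 0 and 0 in the gene body. The 2 Klrk1 peaks were 836 bp wide at 2.56 kb upstream of the TSS and 380 bp wide at 7.20 kb downstream. No peak was listed for Ncr1, Klrd1 (CD94), Klrc2, Klra4 and Klra8. At Ncr1, whose product NKp46 was on all cells by the labels, the nearest peak was 12725 bp from the TSS, and at Klrd1 it was 7058 bp away. Of the 40 bp sequences of their windows, 94.0% were unique in the genome at Klrd1, 80.8% at Klra4, 77.0% at Ncr1, 52.2% at Klra8 and 31.9% at Klrc2, and the part of repeated sequence in these 0 counts was not tested.

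Genes of the cytotoxic machinery were marked almost throughout, with 18 of 19 holding a peak, a median of 4 peaks and 109 bp covered per kb. Rab27a, which docks granules at the membrane, had 10 peaks, Fasl 7, and Gzma and Unc13d, a granule priming factor, 6 each. At Prf1 the 3 peaks stood 1.42 kb upstream of the TSS (547 bp wide), 5.45 kb downstream in coding sequence (1079 bp) and 10.9 kb downstream beyond the gene (1256 bp). At Gzmb both peaks were upstream, at 0.787 kb (491 bp) and 1.80 kb (486 bp). At Ifng one was 5.08 kb upstream (698 bp) and one 2.68 kb downstream in an intron (499 bp). A peak within 2 kb on the upstream side only was found at 8 of the 19 genes, among them Prf1, Gzma, Gzmb, Gzmk and Tnf, and at 6.27% of all autosomal protein-coding TSSs. The TSS was covered only at Gzmm, by a peak of 3747 bp. Ctsc, whose product activates granzymes, had none, and its nearest peak was 71765 bp away.

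The list of IL-2 family receptors and signalling genes also holds Il12rb1, Il12rb2, Il18r1 and Il18rap, receptor genes of other cytokines. It was the most densely covered of the lists, at 138 bp per kb, with 20 of 23 genes holding a peak, 14 holding at least 5 and a median of 6. Il2rb had 9 peaks over 14.9 kb. Of these 2 lay upstream, at 5.13 kb (778 bp) and 1.87 kb (1951 bp), and 7 downstream, of which the widest was 4416 bp at 9.97 kb in an intron and was 5 bp short of the next, of 2416 bp. The last 3 lay beyond the end of the gene, 15.3 to 18.9 kb from the TSS. Il2ra, the inducible alpha chain, had 8 peaks over 4.82 kb, while Il15ra had none and its nearest peak was 42667 bp away. Il2rg on X had none. Of the other receptors in this list, Il18r1 had 9 peaks, Il21r 8 and Il12rb1 and Il12rb2 7 each. Among the kinases and STATs, Jak1 had 28 peaks over 24.8 kb, Stat4 10, Stat5b 8, Tyk2 7, Stat3 6, Jak3 4 and Stat5a 3. Of the feedback inhibitors induced by cytokines, Cish was covered over 48.2% of its window by 6 peaks, Socs3 over 41.4% by 4 and Socs1 over 35.9% by 4, whereas Socs2 had none. In the gene bodies lay 2 of these peaks at Cish, 2 at Socs3 and 0 at Socs1. Bcl2, the survival factor, had 45 peaks over 35.6 kb and Mcl1 4 over 3.42 kb, with 0 in the body of Mcl1.

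Transcription factors of NKC and lymphocytes were marked in 22 of 25 genes, with a median of 7 peaks and a range of 0 to 38. These genes are long, with a median length of 81.1 kb against 15.4 kb over all protein-coding genes. Per length 88.7 bp per kb were covered, less than for the cytotoxic (109) and IL-2 family lists (138). Over all genes, peaks per length themselves fell with gene length, from 4.51 per 100 kb of window at 5 to 20 kb to 1.46 at 100 kb or more. Values per kb thus do not set lists of unlike gene length on a par. Runx1 had 38 peaks (39.3 kb), Ikzf1 35 (30.2 kb), Bach2 31 (23.4 kb), Fli1 and Runx2 29 each (23.7 and 22.1 kb) and Runx3 23 (36.6 kb). Runx3 was covered over 54.3% of its window against 16.7% for Runx1 and 6.73% for Runx2, whose genes are longer. Of the T-box factors, Tbx21 (T-bet) had 8 peaks, of which 3 lay 1.67 to 4.33 kb upstream of the TSS and 5 in the gene, while Eomes had 1, of 1117 bp, in its coding sequence. Nfil3, needed for NKC development, had 7 peaks. Id2, also needed for it, had none within 5 kb, and its nearest peak was 5322 bp from the TSS, just outside the window. Ikzf2 had none and the nearest peak was 1413788 bp away, and Myb had none. Ikzf1, Ikzf2 and Ikzf3, related genes of the Ikaros family, thus had 35, 0 and 13 peaks.

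Chemokines, trafficking receptors and integrins had a peak in 22 of 23 genes, with a median of 3 and 75.8 bp covered per kb. Among the integrins, Itga2 (DX5) had 10 peaks, Itgb2 and Itgam 9 each, Itgae (CD103) 8 and Itgb7 6, while Itgb1 had 1 and Itga4 none. Ccr7, the lymph node homing receptor, had 8 peaks covering 33.8% of its window, with 7 in its body. Cxcr6 had 4 covering 25.2%, with 0 in its body. At Cxcr3 the peaks stood 2.45 and 0.701 kb upstream and 2.53 kb downstream of the TSS, and at Ccl5 2.94 and 1.11 kb upstream and 3.17 kb downstream. The TSS lay inside a peak for 6 of the 23, among them Ccl3, Ccl4, Cx3cr1 and Itgb2, against 2.83% of all autosomal protein-coding genes.

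**Figure D4:**
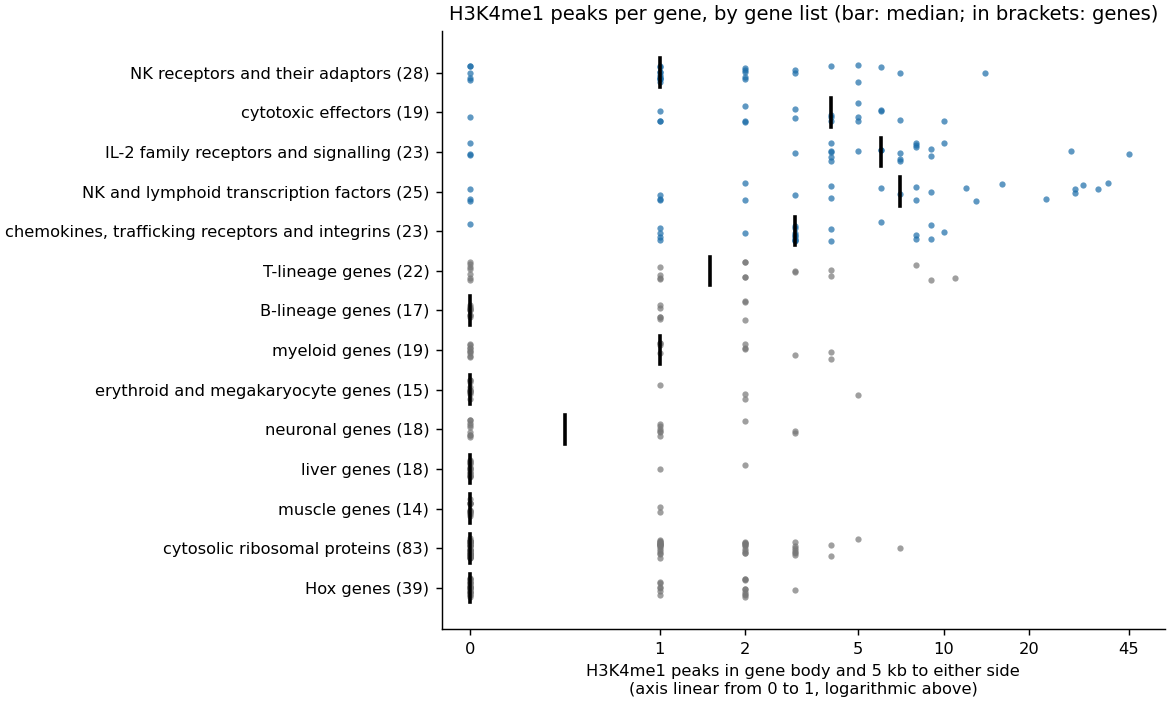
H3K4me1 peaks in the gene body and 5 kb to either side for each gene of 14 lists, 1 point per gene, with the median of each list as a bar and the number of genes in brackets. The axis is linear from 0 to 1 and logarithmic above. Medians are 7 for transcription factors (median gene length 81.1 kb) and 6 for IL-2 family genes (28.7 kb), and 0 for the B-lineage, erythroid and megakaryocyte, liver, muscle, ribosomal protein and Hox genes.

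Among the lists of other blood lineages, only T-lineage genes had an interval (47.3 to 83.6%) above the 39.8% of all protein-coding genes with a peak. The intervals of B-lineage (26.2 to 69.0%), myeloid (31.7 to 72.7%) and erythroid and megakaryocyte genes (10.9 to 51.95%) include it. B-lineage genes alone were below the 20.5 bp per kb covered over all genes, at 9.07. T-lineage genes had 47.9, myeloid genes 38.65 and erythroid and megakaryocyte genes 32.5. Of the T-lineage genes 15 of 22 (68.2%) had a peak, with a median of 1.5, and those with the most were Lef1 (11), Tcf7 (9) and Zap70 (8), the last of which also signals in NKC. The defining Cd3e, Cd3d and Cd3g had 3, 1 and 1, while Cd8a and Cd8b1 had none. Cd3d and Cd3g are neighbours and share their 1 peak, which lies in the body of Cd3d and outside that of Cd3g. Cd4 had 1 peak and 0 in its body. Of the B-lineage genes 8 of 17 (47.1%) had a peak and none had over 2, with none at Cd79a, Cd79b and Ms4a1. Myeloid genes had a peak in 10 of 19 (52.6%), with 4 each at Itgax and Spi1 (PU.1) and none at Lyz2, Csf3r and Cebpa. Of the erythroid and megakaryocyte genes 4 of 15 (26.7%) had a peak, with Tal1 alone reaching 5 and none at the globin genes Hbb-b1 and Hba-a1 or at Gata1, which is on X. As a check of the labelled cell type, markers had a peak in 12 of 15 genes (80%) for NKC (all but Ncr1, Klrd1 and Id2). The counts were 9 of 11 (81.8%) for T cells, 7 of 10 for myeloid cells, 3 of 9 for B cells and 2 of 6 for erythroid cells and megakaryocytes. The shares for NKC and T cells were alike, so these counts do not tell NKC from T cells. The T cell count takes the peak shared by Cd3d and Cd3g for both genes. The study's methods add a sort for DX5 before culture and give nearly all cells as positive for NKp46 after it. Whether other cells left in the culture had a part in the T and myeloid counts was not tested.

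Tissue genes far from the lymphoid lineage had the least covered length per kb of the lists. Liver genes had a peak in 2 of 18 and covered 3.8 bp per kb, with Apoa2 (2) and Ttr (1), and muscle genes in 2 of 14 at 2.0 bp per kb, with Ckm and Tnni3 (1 each). Neuronal genes had a peak in 9 of 18 (50%), which is not below the background of 39.8%, but over long windows, so that only 1.51 bp per kb was covered. Of 1087 olfactory receptor genes 17 (1.56%) had a peak. Genes of cytosolic ribosomal proteins, which are expressed in all cells, were near the background of 39.8%, with 38 of 83 (45.8%), as were the Hox genes with 16 of 39 (41.0%).

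The sequence under H3K4me1 peaks was richer in GC, and in RUNX, ETS, AP-1 and T-box matches, than the genome. The central 300 bp had a mean GC content of 51.3%, against 41.8% in the 8518777 windows of 300 bp that tile the known genome. A RUNX match, as spelled out above, was found in 17695 of the 34204 peaks, 51.7% (51.2 to 52.3%), against 34.5% of genome windows and 43.2% of them when weighted to the GC content of the peaks. An ETS match was found in 64% (63.5 to 64.5%), against 55.3% and 58.5%. An AP-1 match was found in 7.59% (7.32 to 7.88%), against 4.66% and 5.04%, and a T-box match in 6.40% (6.15 to 6.66%), against 3.88% and 4.98%. All 4 were thus more frequent than in the genome with and without the weighting. For the other 3 motifs the order depended on the weighting or was the reverse. A STAT match (TTCNNNGAA) was found in 8.04% (7.75 to 8.33%), below the 11.1% of all windows and above the weighted 7.74%. A GATA match (AGATAA) was found in 10.6% (10.3 to 10.9%) against 19.3% and a weighted 10.9%, and a GC box (GGGCGG) in 7.37% (7.10 to 7.65%) against 2.86% and a weighted 8.44%. Matches of different motifs overlapped seldom, from 2.06% of RUNX matches to 6.18% of T-box matches, except for STAT with 17.4%.

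Peaks near and far from a TSS differed in part of these motifs. The GC box was found in 15.4% of the 4612 peaks within 1 kb of a TSS and in 6.11% of the 29592 farther ones, whose mean GC contents were 54.4% and 50.8%. Genome windows weighted to these GC contents held it in 14.8% and 7.45%, so the near peaks were close to their weighted share and the far ones below it. AP-1 went the other way, with 5.83% near and 7.87% far, against weighted shares of 4.62% and 5.10%. RUNX was alike in raw share, at 51.0% near and 51.9% far. Its weighted shares were 46.25% and 42.7%, so RUNX stood farther above the weighted genome in the far peaks. The gaps between neighbouring peaks, where the caller listed none, were read in the same way. In the central 300 bp of the 4470 gaps of 300 to under 1000 bp, AP-1 reached 10.9% (9.99 to 11.8%), which was above the 7.59% inside peaks and the weighted 4.90% of the genome at the GC content of the gaps. RUNX in gaps was found in 50.5% (49.1 to 52.0%) against a weighted 38.9%, close to its share inside peaks although the gaps had a lower GC content of 46.6%. T-box matches stood at 5.68% and ETS matches at 62.5% in the gaps, against weighted shares of 4.46% and 56.8%.

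**Figure D5:**
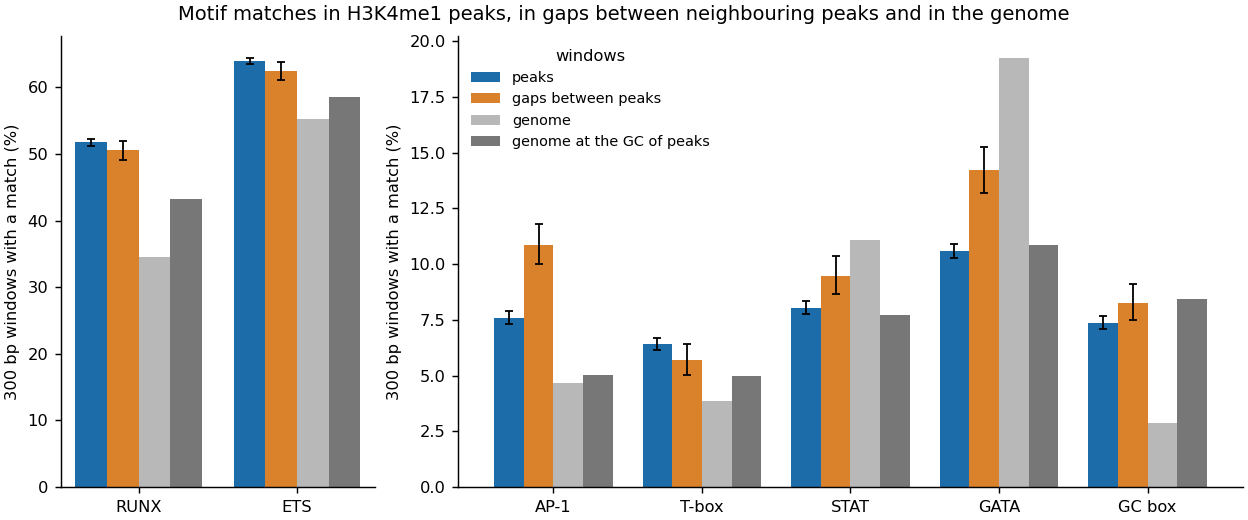
Share of 300 bp windows with a match to each motif (in percent, with 95% Wilson intervals for peaks and gaps), at the centre of all 34204 H3K4me1 peaks, at the centre of 4470 gaps between neighbouring peaks, in all windows of the genome and in the genome weighted to the GC content of the peaks. The left panel has its own axis. AP-1 stands at 7.59% in peaks, 10.9% in gaps and 4.66% in the genome.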

How the data were processed

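ChIP-seq of IL-2-activated splenic NKC was analysed from 2 deposited peak lists. The authors placed 40 bp reads on mm9 by ELAND, used those with a unique alignment, called peaks with MACS against NIS and scaled the larger dataset to the smaller. The deposited values are start and end positions in bp, without scores or values per library, and 0 per-sample columns were left unused. NIS served only in the authors' peak calling. Starts are given from 1. Genes, TSSs and sequence were those of GENCODE M1 and NCBIM37, the assembly behind mm9, on 19 autosomes and X. A peak was counted for a gene when it overlapped the body or 5 kb to either side by 1 bp. Of 12 gene lists and 3 families, Ptcra was not matched among protein-coding genes, and Spi1 and Map2 were found under older symbols. For peak centres, coding sequence took precedence over 5′ untranslated parts, 3′ untranslated parts, other exons and introns. Shares have 95% Wilson intervals, which cover counting error only. The only test was Fisher's exact test on the 2 peak lists. The genes named were list members, the first 10 by peaks, covered length and density, and those at the widest peaks and densest windows. The genes of stretches without a peak were chosen after their values were seen. Some items are not reported here. The members, lists and motifs were chosen with earlier results of these data known. Alternatives were another TSS or gene set, window, overlap rule, joined or wide peaks, and autosomes only. The weighting of genome windows by GC content, in classes of 5 percentage points, and autosomes only for genes were chosen after seeing the data. Steps were tested on simulated data. Tools were matplotlib 3.10.9, pandas 2.3.3, scipy 1.17.1 and numpy 2.4.6 in Python 3.11.15.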

Additional observations from a re-analysis of the deposited data

How the results depend on the processing

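The 4 odds ratios against Runx3 peaks kept their direction and significance with peaks joined, on autosomes and in the wider peaks of each list. For the gene lists, 91 alternatives stayed within the interval of the reported share and 14 did not. That count is a weak check. Joining peaks could not change whether a gene had a peak, and autosomes only could not change a list without genes on X. The intervals of short lists were also wide, as for B-lineage genes (26.2 to 69.0%). The TSS set mattered most for distances. With starts of protein-coding genes only, 6.32% of centres lay within 1 kb and 24.6% beyond 50 kb. Joining peaks gave 15.1% and 10.4%, any base within 1 kb gave 17.4%, and peaks of at least median width gave 8.97% beyond 50 kb. Introns held 55.1% with protein-coding genes only, 58.9% by base pairs, 55.0% joined and 58.0% in wide peaks, and the space outside genes 36.1%, 31.9%, 34.9% and 31.8%. The share of genes with at least 1 peak was 31.0% for the gene body only, 44.5% with 10 kb, 37.3% by nearest TSS, 26.7% in wide peaks and 41.4% on autosomes. The share with at least 5 was 5.75%, 10.4%, 7.08% and 3.44% in the first 4 of these, and 3.93% with peaks joined. With the gene body only, NKC receptors fell to 46.4%, myeloid genes to 26.3%, liver genes to 0%, olfactory receptors to 0.644%, ribosomal protein genes to 27.7% and Hox genes to 20.5%. With wide peaks only, NKC receptors gave 46.4%, chemokines and integrins 65.2%, myeloid genes 31.6%, neuronal genes 11.1%, olfactory receptors 0.644%, ribosomal protein genes 30.1% and Hox genes 20.5%. By nearest TSS, neuronal genes gave 16.7%. Over all transcript starts, coverage was 3.53% at the TSS, 4.49% at 1 kb upstream and 5.17% at 1 kb downstream, against 2.83%, 4.13% and 4.72%. In the central 200 bp, which offer fewer positions, motif shares were 38.7% for RUNX, 49.4% for ETS, 5.12% for AP-1, 4.21% for T-box, 5.36% for STAT, 6.84% for GATA and 5.08% for the GC box. No paired analysis was possible because the H3K4me1 library is single and the lists pool libraries. For the same reason no library could be left out, and no stricter threshold could be set without scores. Depth limits what was called, and the peak lists do not hold it.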
